A study of Homo sapiens with 8 samples.

Results

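The mRNA of 10 genes around the A20, cIAP and TRAF proteins of NF-kB signalling was followed in human bronchial epithelial cells given house dust mite (HDM) extract. The genes were TNFAIP3, TNFAIP2, TNIP1, TNIP2, BIRC2, BIRC3, TRAF1, TRAF2, CYLD and ZC3H12A, taken by gene symbol, and all 10 were found among the 26485 genes of the tables. The cells were BEAS-2B, a virus-immortalised airway epithelial line. They received either control siRNA or siRNA against LY96 and were switched to BEBM medium 24 h before stimulation with PBS or HDM extract. RNA was taken 24 h after stimulation. LY96 encodes MD-2, the lipopolysaccharide-binding partner of the receptor TLR4. There was 1 PBS library with control siRNA, 1 PBS library with LY96 siRNA, 3 HDM libraries with control siRNA and 3 HDM libraries with LY96 siRNA. These groups are called control PBS, LY96 PBS, control HDM and LY96 HDM. All cells were transfected. The labels do not state that same-group libraries are separate cultures. The p-values therefore rest on library-to-library spread alone, which may be technical.

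The tables name no unit, and their values were read as FPKM (fragments counted per transcript length and per library total), so that levels of different genes can be set side by side. Library totals ranged from 329777 to 340328 FPKM, and the read depth is unknown. LY96 itself was listed at 0 FPKM in all 8 libraries, so the siRNA could not be checked on its target and each siRNA group is named by its label. All 7 epithelial markers (EPCAM, CDH1 and 5 keratins) averaged at least 1 FPKM. The 8 leukocyte markers summed to between 0.0310 and 0.566 FPKM per library, with PTPRC, CD3E and FCGR3A at 0 throughout, and the 5 endothelial markers to between 0.171 and 0.423 FPKM. Of 7 fibroblast markers, 3 (COL1A1, PDGFRB and THY1) averaged at least 1 FPKM, while DCN and LUM were at 0 in every library.

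Signals from TNF receptors, interleukin-1 receptors and TLR4 reach NF-kB through chains of ubiquitin that are built and trimmed on adaptor proteins. TRAF2 and the ubiquitin ligases cIAP1 (BIRC2) and cIAP2 (BIRC3) build such chains on receptor complexes. TRAF1 is a TRAF protein without a RING domain that pairs with TRAF2. The ubiquitin-editing enzyme A20 (TNFAIP3), its binding partners ABIN-1 (TNIP1) and ABIN-2 (TNIP2) and the deubiquitinase CYLD restrain the signal. ZC3H12A encodes Regnase-1, an endoribonuclease that degrades mRNAs of inflammatory cytokines. TNFAIP2 shares its name with A20 because both were found as TNF-induced genes, and its protein, M-Sec, takes part in the formation of membrane nanotubes. Several of these genes, TNFAIP3 and BIRC3 among them, are known NF-kB targets, so that the signal can feed back on itself.

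The promoters of these genes were read as well, and their part in the HDM differences was not tested. RefSeq promoter windows (GRCh38.p14, 250 bases before to 50 bases after a transcription start) were present for all 10 genes, in 16 windows because 4 genes have several annotated starts. Searched on both strands for the 10-base kappaB consensus, the sequence class to which NF-kB dimers bind, 5 of the 16 windows held at least 1 match. These belonged to 4 of the 10 genes, TNFAIP3, BIRC3, TNIP1 and CYLD. Over all genes, 11.3% of 35116 windows and 13.3% of 27305 genes held a match. TNFAIP3 and BIRC3 each held 2 matches, and 2.04% of all windows held 2 or more. The stretches around the matches that lie before a start are given below on the gene's own strand, 5′ to 3′, with the matching bases in capitals.
TNFAIP3, chr6:137867188-137867217 (+ strand): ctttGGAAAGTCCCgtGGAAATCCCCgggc
BIRC3, distal match, chr11:102317275-102317304 (+ strand): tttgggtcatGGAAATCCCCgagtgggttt
BIRC3, proximal match, chr11:102317339-102317368 (+ strand): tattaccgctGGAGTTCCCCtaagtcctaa
TNIP1, chr5:151081057-151081086 (- strand): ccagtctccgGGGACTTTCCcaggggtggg
CYLD, chr16:50741887-50741916 (+ strand): ttgacagagcGGAAAGTCCCttcggccggc
Counted in bases from the start, the matches began at -67 and -55 in TNFAIP3, at -199 and -135 in BIRC3, at -42 from start 2 in TNIP1 and at -189 from start 2 in CYLD. The TNIP1 match reads in the direction of the gene, and the other 5 printed matches read on the opposite strand. A further match in CYLD began at base 1 of its start 3. The starts used here are those of RefSeq. By the GENCODE v29 spans given below, the TNFAIP3 and TNIP1 stretches lie inside their genes. No match was in the windows of TNFAIP2, TNIP2, BIRC2, TRAF1, TRAF2 or ZC3H12A, which says only that these letters are not in those windows. These are letter matches, and binding was not measured.

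**Figure D1:**
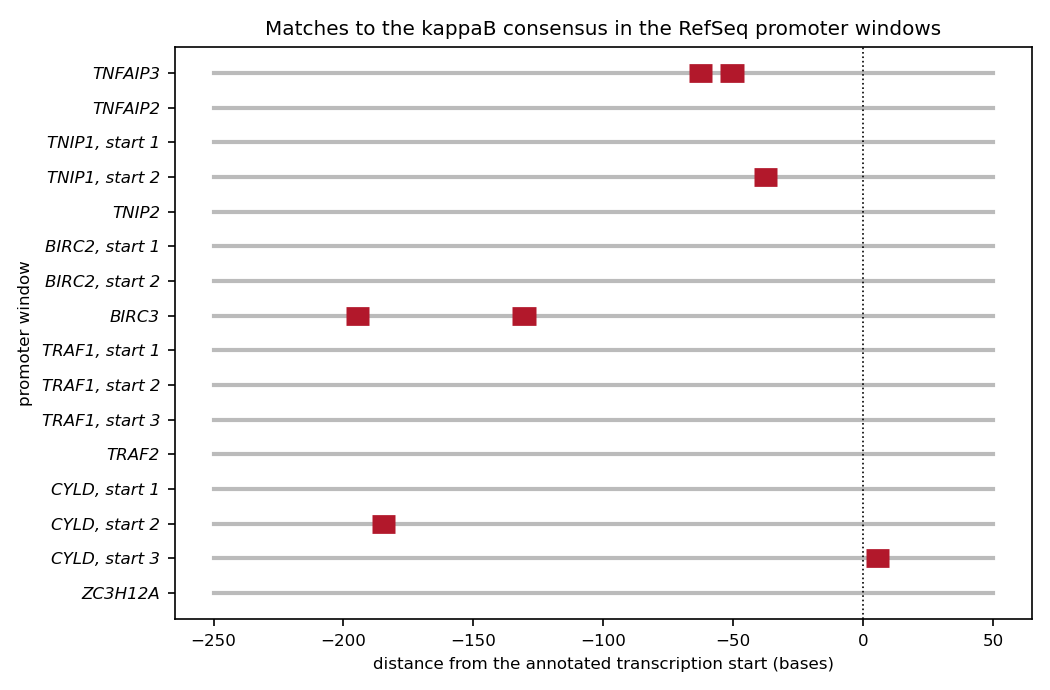
Each grey line is 1 RefSeq promoter window of the 10 genes, from 250 bases before to 50 bases after an annotated transcription start (x axis, bases; dotted line at the start). Red boxes are matches to the 10-base kappaB consensus on either strand, found in 5 of the 16 windows.

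HDM extract was accompanied by higher levels of 5 of the 9 tested genes with either siRNA, namely TNFAIP2, ZC3H12A, BIRC3, TNFAIP3 and TNIP1. Averaged over both siRNAs, CYLD passed as well. Tests were run with limma on log2(FPKM + 1) over genes that averaged 1 FPKM or more, with two-sided Benjamini-Hochberg adjusted p-values over all genes tested and a threshold of 0.05. TRAF1 fell below that level and was not tested. With control siRNA, 5 of the 9 were called higher and 0 lower, where 1.55% of 12604 genes were called higher and 0.738% lower. With LY96 siRNA the counts were again 5 and 0, where 2.91% of all genes were called higher and 1.98% lower. Over both siRNAs, 6 were higher and 0 lower, against 4.86% of all genes called higher and 3.50% lower. The median difference over the 9 tested genes was log2 0.73, beside 0.01 over all genes tested. With 1 PBS library per siRNA, these tests take the spread from the 6 HDM libraries and assume that PBS libraries vary alike. Separation of HDM from PBS libraries, where given below, is from 1 PBS library per siRNA. Its share over all genes was not counted. The comparisons share libraries and are not independent of each other. In bulk RNA, a change in the make-up of the culture and a change in RNA per cell cannot be told apart. The summed epithelial markers were 1331 FPKM in control PBS and 1342 FPKM in LY96 PBS. They were 1278 to 1322 FPKM in control HDM and 1156 to 1220 FPKM in LY96 HDM. These sums hide single markers that differed. Over both siRNAs, KRT5 was higher with HDM (log2 0.15). KRT7, KRT8, KRT18, KRT19, CDH1 and EPCAM were at log2 -0.38, -0.19, -0.14, -0.17, -0.15 and -0.05. Between control PBS and LY96 PBS, CDH1 went from 26.7 to 49.7 FPKM, KRT5 from 332 to 440 and KRT19 from 153 to 119. The summed fibroblast markers were 34.6 and 39.5 FPKM with PBS against 28.3 to 30.3 and 32.8 to 38.6 FPKM with HDM. Of the 3 tested fibroblast markers, PDGFRB, a fibroblast and pericyte receptor gene, was lower with HDM over both siRNAs (log2 -0.60, adjusted p = 1.62e-04, limma). The other tested markers, COL1A1 (log2 -0.23, adjusted p = 0.174) and THY1 (log2 0.20, adjusted p = 0.140, limma), went in opposite directions and did not pass. The share of 18S and 28S ribosomal RNA in the FPKM total was 0.770% in control PBS against 0.475% to 0.824% in control HDM, and 0.826% in LY96 PBS against 1.03% to 1.31% in LY96 HDM. The part of these markers and of ribosomal RNA in the HDM differences was not tested.

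**Figure D2:**
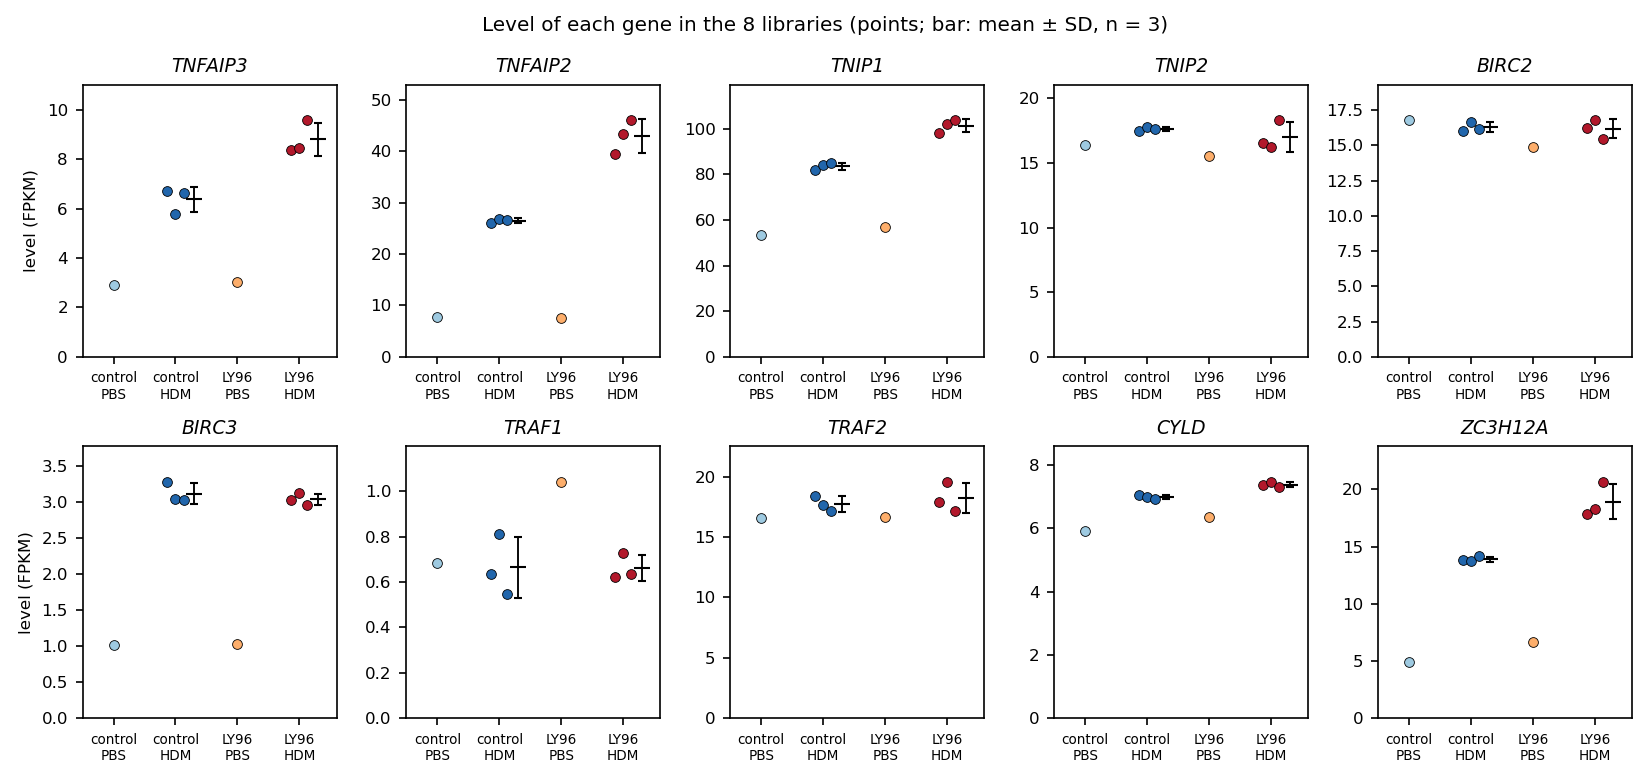
Level of each of the 10 genes in FPKM (y axis, from 0, scaled per gene) in the 8 libraries, by siRNA and stimulus (x axis). Each point is 1 library, and the bar beside each HDM group is its mean ± SD (n = 3). TNFAIP3, TNFAIP2, TNIP1 and ZC3H12A are higher with LY96 siRNA than with control siRNA under HDM, whereas the BIRC3 groups overlap.

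TNFAIP2 (chromosome 14, 103123442 to 103137439, GENCODE v29 on GRCh38) had the largest response of the 9 tested genes. It stood at 7.68 FPKM in control PBS, and at 26.1, 26.9 and 26.7 FPKM in the 3 control HDM libraries. With LY96 siRNA it was at 7.60 FPKM with PBS and at 39.6, 43.3 and 46.1 FPKM with HDM. Both PBS libraries were thus nearly level, and each HDM library lay above its PBS library and each LY96 siRNA HDM library above every control siRNA HDM library. The ratio of mean HDM to PBS level was 3.46 with control siRNA and 5.66 with LY96 siRNA (log2 1.67 ± 0.08 SE, adjusted p = 1.04e-05 and log2 2.35 ± 0.08 SE, adjusted p = 8.23e-07, limma).

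The A20 gene TNFAIP3 (chromosome 6, 137867188 to 137883312) was at 2.89 FPKM in control PBS and at 6.71, 5.79 and 6.63 FPKM in control HDM. It was at 3.01 FPKM in LY96 PBS and at 8.36, 8.46 and 9.59 FPKM in LY96 HDM. The PBS libraries were close together, and the HDM groups did not overlap with them or with each other. HDM over PBS was 2.21-fold with control siRNA and 2.92-fold with LY96 siRNA (log2 0.92 ± 0.10 SE, adjusted p = 0.00178 and log2 1.29 ± 0.10 SE, adjusted p = 1.31e-04, limma). These log2 values are smaller than the ratios would give, because the added pseudocount of 1 understates changes of low genes.

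Its partner genes behaved unlike each other. TNIP1 (chromosome 5, 151029945 to 151093577), the gene of ABIN-1, which links A20 to ubiquitin chains, was at 53.5 FPKM in control PBS and at 81.9, 84.0 and 84.9 FPKM with HDM. With LY96 siRNA it was at 56.8 FPKM with PBS and at 98.2, 102.1 and 103.8 FPKM with HDM. The groups were again separate and in the same order as for TNFAIP3, with ratios of HDM to PBS of 1.56 and 1.79 (log2 0.63 ± 0.05 SE, adjusted p = 1.36e-04 with control siRNA and log2 0.83 ± 0.05 SE, adjusted p = 1.69e-05 with LY96 siRNA, limma). TNIP2 (chromosome 4, 2741648 to 2756376), the gene of ABIN-2, was at 16.4 and 15.5 FPKM in the PBS libraries. It was at 17.4, 17.8 and 17.7 FPKM in control HDM and at 16.5, 16.2 and 18.3 FPKM in LY96 HDM. The HDM effect over both siRNAs, log2 0.11 (95% interval -5.88e-04 to 0.22), did not pass (adjusted p = 0.234, limma).

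BIRC3 and BIRC2, neighbouring genes on chromosome 11 (102317450 to 102339403 and 102347211 to 102378670) with 7807 bases between them, differed in response. BIRC3 was at 1.02 FPKM in control PBS and at 3.28, 3.04 and 3.03 FPKM with HDM, and at 1.04 FPKM in LY96 PBS and 3.03, 3.12 and 2.96 FPKM with HDM. Its level roughly tripled with HDM under either siRNA, by 3.05-fold and 2.93-fold (log2 1.02 ± 0.09 SE, adjusted p = 5.64e-04 and log2 0.99 ± 0.09 SE, adjusted p = 3.78e-04, limma). BIRC2 was at 16.8 FPKM in control PBS and at 16.0, 16.7 and 16.1 FPKM with HDM, and at 14.9 FPKM in LY96 PBS and 16.3, 16.8 and 15.4 FPKM with HDM. Its HDM effect over both siRNAs was log2 0.03 (95% interval -0.06 to 0.13, adjusted p = 0.727, limma). The products of these 2 genes are close paralogs, so the division of reads between them depends on the authors' counting.

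ZC3H12A (chromosome 1, 37474552 to 37484379) was at 4.89 FPKM in control PBS and at 13.8, 13.8 and 14.1 FPKM with HDM. With LY96 siRNA it was at 6.64 FPKM with PBS and at 17.9, 18.3 and 20.7 FPKM with HDM. Here the PBS library with LY96 siRNA also stood above the PBS library with control siRNA, by 1.36-fold. The ratio of HDM to PBS was 2.84 with control siRNA and 2.85 with LY96 siRNA (log2 1.34 ± 0.08 SE, adjusted p = 4.54e-05 and log2 1.38 ± 0.08 SE, adjusted p = 2.09e-05, limma).

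Of the remaining regulators, CYLD (chromosome 16, 50742050 to 50801935) was at 5.93 FPKM in control PBS, 7.05, 7.002 and 6.92 FPKM in control HDM, 6.37 FPKM in LY96 PBS, and 7.36, 7.48 and 7.31 FPKM in LY96 HDM. The 4 groups did not overlap, but each PBS group is 1 library. Its HDM effect passed over both siRNAs (log2 0.20 ± 0.04 SE, adjusted p = 0.0274, limma) but within neither (adjusted p = 0.147 and 0.157). Reads of CYLD and TNFAIP3 and of the antisense genes that overlap them cannot be told apart, since the strand setting of the counting is not given. The call for CYLD over both siRNAs was lost without control HDM replicate 1 or 2 (adjusted p = 0.0513 and 0.0612) and without LY96 HDM replicate 1 or 2 (adjusted p = 0.0527 and 0.0557). TRAF2 (chromosome 9, 136881912 to 136926607) was at 16.6 FPKM in each PBS library, at 18.4, 17.6 and 17.1 FPKM in control HDM and at 17.9, 19.6 and 17.2 FPKM in LY96 HDM. Its effect over both siRNAs was log2 0.11 (95% interval -0.01 to 0.23, adjusted p = 0.286, limma). TRAF1 (chromosome 9, 120902393 to 120929173) was the lowest of the 10 genes in 7 of 8 libraries. Its level was 0.685 FPKM in control PBS, 0.636, 0.811 and 0.546 FPKM in control HDM, 1.04 FPKM in LY96 PBS, and 0.621, 0.728 and 0.637 FPKM in LY96 HDM. With the filter on low values removed, its HDM effect over both siRNAs was log2 -0.16 ± 0.08 SE (adjusted p = 0.369, limma).

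**Figure D3:**
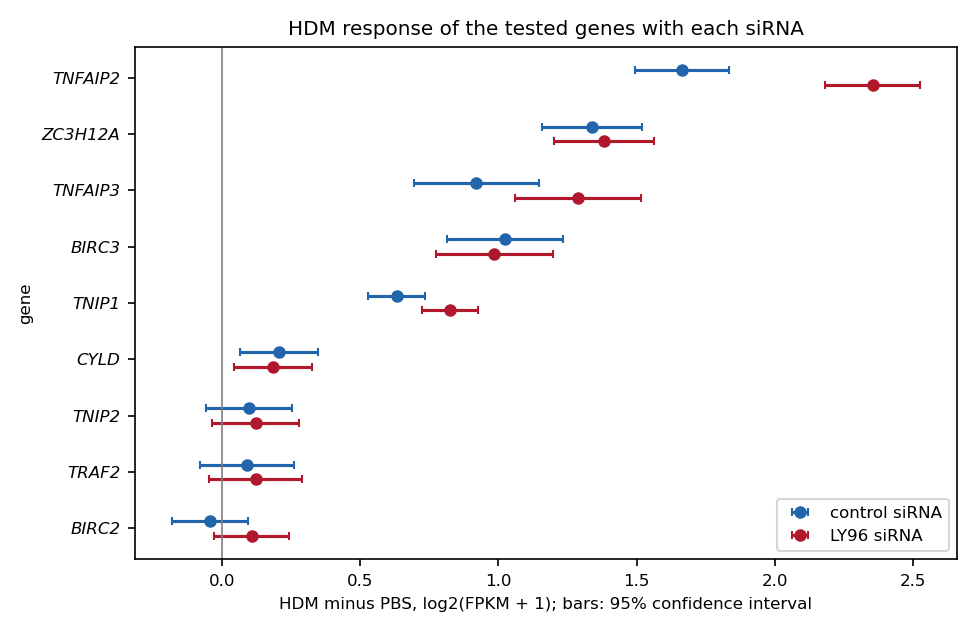
HDM minus PBS difference on the log2(FPKM + 1) scale (x axis) for the 9 tested genes (y axis), with control siRNA (blue) and LY96 siRNA (red). Points are limma estimates and bars their 95% confidence intervals. The intervals of TNFAIP2 do not overlap between the siRNAs, and those of BIRC3 and ZC3H12A nearly coincide. Tested as an interaction, the difference between the siRNAs passed for none of the 9 genes. Each siRNA has 1 PBS library.

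Under HDM, 4 of the 9 tested genes were higher with LY96 siRNA than with control siRNA and 0 were lower, where 6.68% of 12598 genes were called higher. The 4 were TNFAIP2, ZC3H12A, TNFAIP3 and TNIP1. Over all genes the calls were 842 higher and 1124 lower, and median-ratio scaling turned this to 1050 higher and 893 lower, while the 4 calls held. TNFAIP2 rose from 26.5 ± 0.428 to 43.0 ± 3.28 FPKM (SD, n = 3 each, 1.62-fold, log2 0.67 ± 0.05 SE, adjusted p = 2.09e-04, limma). ZC3H12A rose from 13.9 ± 0.208 to 18.9 ± 1.53 FPKM (1.36-fold, log2 0.42 ± 0.05 SE, adjusted p = 0.00206). TNFAIP3 rose from 6.38 ± 0.507 to 8.80 ± 0.684 FPKM (1.38-fold, log2 0.41 ± 0.07 SE, adjusted p = 0.00623), and TNIP1 from 83.6 ± 1.51 to 101.4 ± 2.85 FPKM (1.21-fold, log2 0.28 ± 0.03 SE, adjusted p = 0.00108). In each of these genes every LY96 siRNA library lay above every control siRNA library. CYLD showed the same separation, which 15.2% of genes did in that direction and 21.8% in the opposite one, but did not pass (log2 0.07, 95% interval -0.03 to 0.17, adjusted p = 0.318, limma).

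BIRC3 did not follow them. Its means were 3.12 ± 0.145 and 3.04 ± 0.0818 FPKM (SD, n = 3 each), with a log2 difference of -0.03 (95% interval -0.17 to 0.11, adjusted p = 0.788, limma), and the groups overlapped. BIRC2 (log2 -0.01, 95% interval -0.11 to 0.09), TRAF2 (0.04, -0.08 to 0.15) and TNIP2 (-0.05, -0.16 to 0.06) did not pass either (adjusted p = 0.897, 0.684 and 0.533, limma). These intervals hold for log2(FPKM + 1), where the pseudocount narrows differences of a gene as low as BIRC3, and they do not show equality. The share of 18S and 28S ribosomal RNA in the FPKM total, a sign of RNA or library quality, ran from 0.475% to 0.824% in the control siRNA HDM libraries and from 1.03% to 1.31% in the LY96 siRNA HDM libraries. It separates the same groups, and its part in the result was not tested. The summed epithelial markers ran from 1278 to 1322 FPKM and from 1156 to 1220 FPKM in these groups, the summed fibroblast markers from 28.3 to 30.3 and from 32.8 to 38.6 FPKM. Of the 7 epithelial markers, CDH1 was called higher (log2 0.49) and KRT8, KRT18 and KRT19 lower (log2 -0.25, -0.24 and -0.66, limma). Of 3 tested fibroblast markers, COL1A1 and THY1 were called higher (log2 0.37 and 0.42) and PDGFRB was not called. Over all genes, 6.68% were called higher and 8.92% lower. The part of these markers was not tested.

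**Figure D4:**
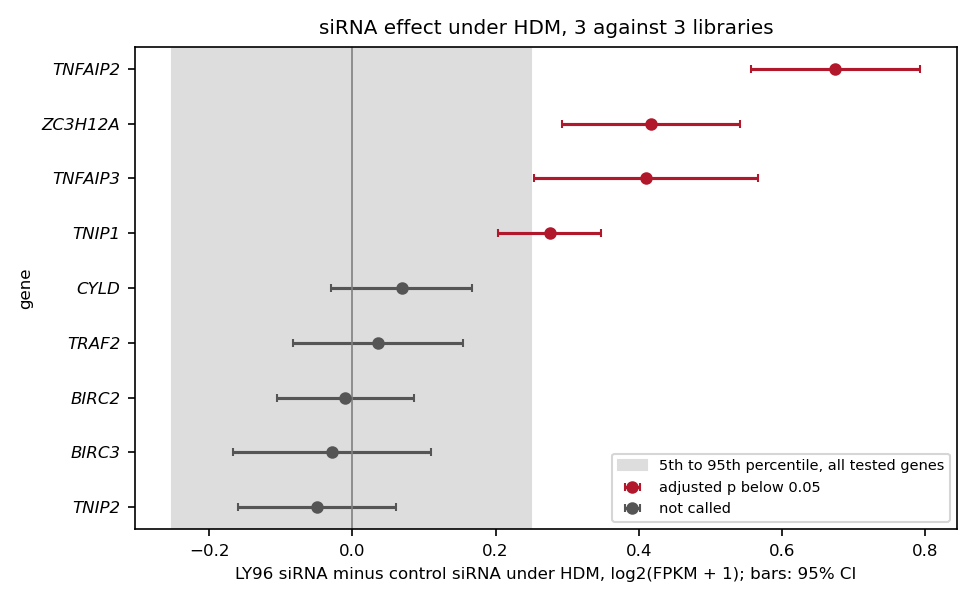
LY96 siRNA minus control siRNA under HDM on the log2(FPKM + 1) scale (x axis) for the 9 tested genes (y axis), 3 against 3 libraries. Points are limma estimates with 95% confidence intervals, red where the adjusted p is below 0.05, and the grey band spans the 5th to 95th percentile of all 12598 genes tested. TNFAIP2, ZC3H12A, TNFAIP3 and TNIP1 lie to the right of the band's upper edge at 0.25.

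Whether the HDM response itself differed between siRNAs was tested as an interaction, positive where LY96 siRNA goes with the larger response. None of the 9 genes passed, where 0.0555% of all genes did in either direction (limma). At an unadjusted p under 0.05 there were 3 of the 9, and 7.58% of all genes. TNFAIP2 came closest at log2 0.69 ± 0.11 SE (adjusted p = 0.0889, with 0.0535 to 0.363 over the alternatives). TNFAIP3 was at log2 0.37 (95% interval 0.04 to 0.69, adjusted p = 0.601) and TNIP1 at log2 0.19 (95% interval 0.05 to 0.34, adjusted p = 0.533). ZC3H12A had an interaction of log2 0.04 (95% interval -0.21 to 0.30) and BIRC3 of log2 -0.04 (95% interval -0.34 to 0.26). By ratios of levels, the 5 genes that rose with HDM showed 3 arrangements, which the interaction test did not tell apart. In TNFAIP2, TNFAIP3 and TNIP1 the PBS libraries differed by at most 1.06-fold and the HDM libraries by 1.21-fold to 1.62-fold. In ZC3H12A both stimuli showed a 1.36-fold ratio between siRNAs, and in BIRC3 neither HDM (0.974) nor PBS (1.01) departed far from a ratio of 1. The PBS ratios compare single libraries and have no replicate check.

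The order of levels changed with HDM. TNIP1 was the most abundant of the 10 in all 4 groups. With control siRNA and PBS it was followed by BIRC2, TRAF2 and TNIP2 within 16.4 to 16.8 FPKM, and TNFAIP2 came next. With control siRNA and HDM, TNFAIP2 stood second, and TRAF2 and TNIP2 in the next places overlapped between libraries. With LY96 siRNA and HDM, ZC3H12A had moved next to TNFAIP2 and overlapped with TRAF2, TRAF2 with TNIP2 and TNIP2 with BIRC2. TNFAIP3 passed CYLD in that group (8.80 ± 0.684 against 7.38 ± 0.0878 FPKM, SD, n = 3 each), whereas it lay below CYLD in control HDM (6.38 ± 0.507 against 6.99 ± 0.0656 FPKM).

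Across the 8 libraries, the 5 genes whose log2 values ran most like those of TNFAIP3 were CXCL2, NNMT, C1R, NFKB2 and SLC18B1 (Pearson r = 0.996, 0.995, 0.994, 0.994 and 0.993 among 8896 genes averaging 5 FPKM or more across all libraries). CXCL2 encodes a neutrophil chemokine, NNMT a nicotinamide methyltransferase, C1R a complement protease and NFKB2 an NF-kB subunit. NFKB2 averaged 12.9 FPKM in control PBS, 22.1 in control HDM, 12.6 in LY96 PBS and 27.7 in LY96 HDM. Those most like BIRC3 were CTSC, TAPBP, C3, GBP2 and S100A8 (r = 0.991, 0.984, 0.983, 0.983 and 0.982). CTSC, a lysosomal protease gene, averaged 31.7, 42.7, 32.4 and 42.7 FPKM in the same order of groups. GBP2, an interferon-induced GTPase gene, averaged 4.21, 7.11, 4.24 and 7.17 FPKM. The others were less level between the HDM groups or differed in direction. In control HDM and LY96 HDM, TAPBP averaged 50.6 and 52.2 FPKM, C3 186.7 and 215.3, and S100A8 387.3 and 341.4. No gene was in both lists of 5, but TNFAIP3 and BIRC3 themselves correlated at r = 0.917 over the 8 libraries. CXCL2 was at 0.416 and 0.707 FPKM in the PBS libraries and averaged 6.78 and 12.1 FPKM in control HDM and LY96 HDM, so it, like GBP2, entered the ranking through its HDM levels. These correlations describe 8 libraries in 4 groups, so differences between group levels enter them.

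A further 9 groups of pathway genes, 51 genes in all, were read in the same fits, and 45 of them were tested. Over both siRNAs 4 of the 45 rose with HDM and 0 fell, where 4.86% and 3.50% of all genes did. TRAF3, a TRAF protein that holds back the kinase NIK, was at 4.47 FPKM in control PBS and 6.63 ± 0.130 FPKM with HDM. The LY96 PBS and LY96 HDM levels were 5.02 and 6.75 ± 0.136 FPKM (SD, n = 3 each; log2 0.42 ± 0.05 SE over both siRNAs, adjusted p = 7.61e-04, limma). The TNF receptor gene TNFRSF1A rose by log2 0.20 and the lymphotoxin receptor gene LTBR by 0.20 (adjusted p = 0.00977 and 0.00903). The Regnase relative ZC3H12C rose by log2 0.31 (adjusted p = 0.0268), a call lost without control HDM replicate 3 or LY96 HDM replicate 2 (adjusted p = 0.0529 and 0.0525). None of the 4 tested further inhibitor of apoptosis genes, 5 linear ubiquitin ligase and OTULIN genes, 3 further A20 partners, 7 TAK1 and IKK subunit genes and 6 deubiquitinase genes passed for HDM over both siRNAs (limma), with 1, 0, 0, 0 and 0 of them at an unadjusted p under 0.05, which 21.6% of all genes had.

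With LY96 siRNA under HDM, 2 of the 45 genes were higher and 6 lower, where 6.68% and 8.92% of all genes were. TAX1BP1, the gene of an adaptor that works with A20, was higher (log2 0.19 ± 0.04 SE, adjusted p = 0.0122), and MAP3K14, the gene of NIK, was lower (log2 -0.22 ± 0.05 SE, adjusted p = 0.0142, limma). Both calls held in all 15 alternatives. The other 6 lost the call in at least 4 of the 15. They were TNFRSF1A (log2 0.16), which was higher, and USP18 (-0.28), CFLAR (-0.20), N4BP1 (-0.18), RNF11 (-0.17) and OTUB1 (-0.13), which were lower (adjusted p from 0.0219 to 0.0466). The median over the 5 other TRAF genes was log2 -0.02 and over the 7 TAK1 and IKK genes 0.02, beside -0.02 over all genes tested. No gene of the 45 passed for the interaction, and 1 had an unadjusted p under 0.05 (limma), as did 7.58% of all genes.

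**Figure D5:**
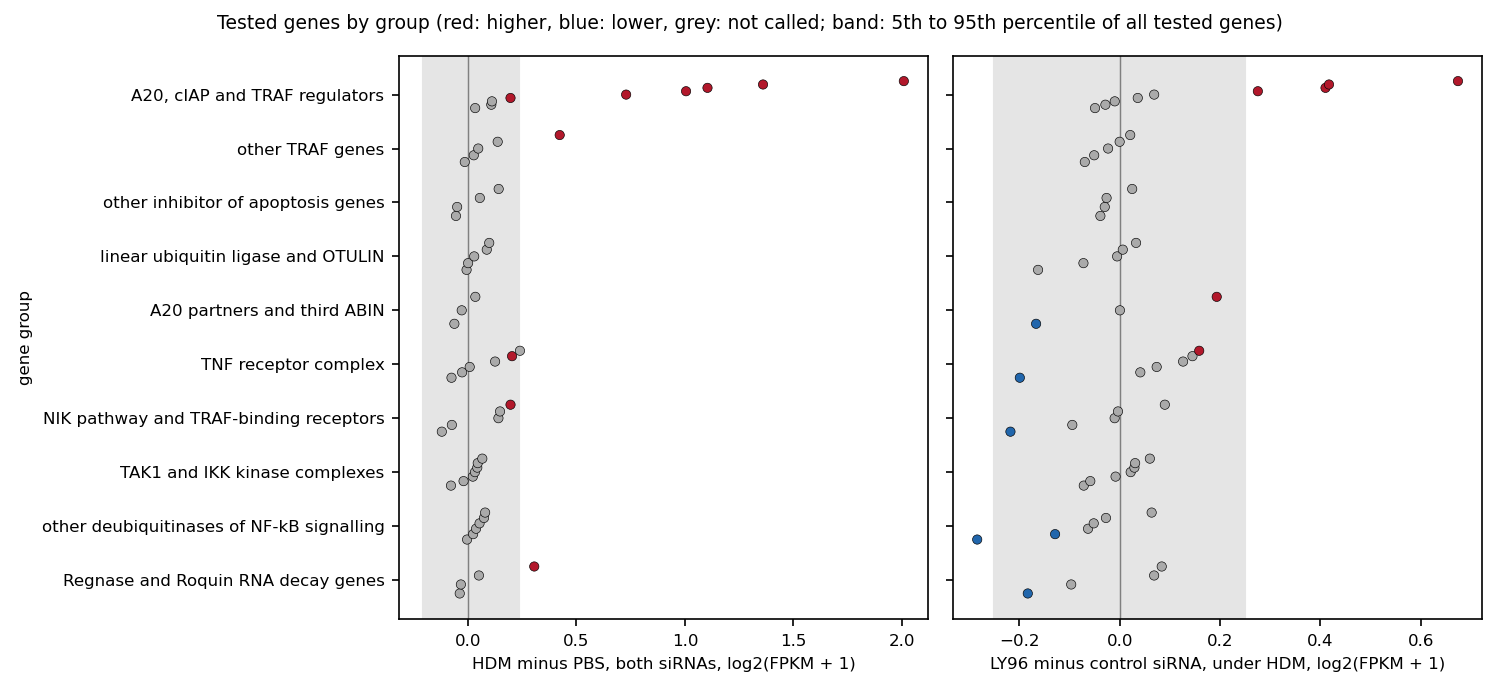
Differences on the log2(FPKM + 1) scale (x axes) for the tested genes of each group (y axis), for HDM minus PBS over both siRNAs (left) and LY96 minus control siRNA under HDM (right). Each point is 1 gene, red if higher, blue if lower and grey if not called, and the grey band spans the 5th to 95th percentile of all tested genes. Of the 9 tested genes of the top group, 5 lie to the right of the band for HDM and 4 for LY96 siRNA.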

How the data were processed

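The authors deposited 1 table for each of 8 BEAS-2B libraries, with 1 value per gene symbol. The submitters' processing notes name HISAT2 2.2.0 and hg38. No source used here names the quantification program or annotation. The deposited values carry no unit and were read as FPKM, because they are not whole numbers and their totals differ between libraries. Low values showed no whole-read steps, and no pair of libraries was identical. The 10 genes, the pathway lists and the tests were chosen with earlier results of these data known.

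The log2(FPKM + 1) values entered limma 3.58.1 (R 4.3.3) for genes averaging 1 FPKM or more, using a mean-variance trend and robust moderation. The siRNA effect under HDM used 6 libraries, and the HDM effects and the interaction used 1 model of 4 group means over 8 libraries. Residual degrees of freedom numbered 4 in each. Fits were tested on simulated data first. Intervals are at 95%. All 10 genes are named. Of each pathway list, up to 4 genes with the largest differences could be named, and likeness was ranked over genes averaging 5 FPKM or more. The alternatives were pseudocounts of 0.1 and 0.5, no filter, other scalings and moderation, leaving out single HDM libraries, a replicate block, and other models. Coordinates are those of GENCODE v29 (GRCh38), and promoter sequences are from RefSeq (GRCh38.p14).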

Additional observations from a re-analysis of the deposited data

How the results depend on the processing

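The number of the 9 tested genes called stayed at 4 for LY96 siRNA under HDM, at 5 for HDM with control siRNA, at 5 for HDM with LY96 siRNA and at 0 for the interaction in every alternative run. For HDM over both siRNAs it was 6 in the alternatives with all libraries, and 5 to 6 with single HDM libraries left out, CYLD being the gene lost. No called difference changed sign. The 576 recomputed differences of single genes cover all 45 main results, also those not called, which had no call to lose. The call was lost in 4, all of them CYLD over both siRNAs. These were 4 of the 6 runs that left out 1 HDM library. Calls over all genes moved more. The 1966 calls for LY96 siRNA under HDM became 1119 and 1243 without control HDM replicate 2 and 3. The 288 calls for HDM with control siRNA became 187 without control HDM replicate 2 and 180 without trend and robust moderation. The 7 interaction calls became 20 without the filter, 14 with quantile normalization, 0 without trend and robust moderation, and, with single libraries left out, 0 (control HDM replicate 1), 3 (control HDM replicate 3), 2 (LY96 HDM replicate 1), 33 (LY96 HDM replicate 2) and 4 (LY96 HDM replicate 3). Other pathway genes called for LY96 siRNA under HDM numbered 8, and 3 to 4 without single HDM libraries, 5 without trend and robust moderation and 5 with the replicate block, recomputed after the data were seen.

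With the replicate number as a block, LY96 siRNA under HDM called 4 of the 9 genes, as without it. Deviations of same-numbered HDM libraries from their group means correlated at 0.03, -0.02 and -0.02 across genes, so no shared deviation was seen. These values cannot tell whether same-numbered libraries were handled together. Read depth is unknown, which leaves the precision of low genes such as TRAF1 and BIRC3 to the spread between libraries alone.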

Other observations

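Ratios between 2 genes within a library do not depend on the scaling of that library. The pairs below were chosen after the values were seen, and their ratios are a description. The ratio of TNFAIP3 to BIRC3 was 2.82 and 2.90 in the PBS libraries with control and LY96 siRNA. It was 2.04, 1.91 and 2.19 in the control siRNA HDM libraries and 2.76, 2.71 and 3.24 in the LY96 siRNA HDM libraries. The control HDM ratios lay below both PBS ratios, and the LY96 HDM ratios lay around them. Between the HDM groups this ratio was log2 0.50 higher with LY96 siRNA.

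TNFAIP2 relative to BIRC3 was log2 0.73 higher with LY96 siRNA under HDM, ZC3H12A relative to BIRC3 log2 0.48, TNIP1 relative to TNIP2 log2 0.33 and TNFAIP2 relative to TNFAIP3 log2 0.23. Each of these pairs holds a gene already described as higher with LY96 siRNA, so the ratios restate those differences. The ratio of BIRC3 to its neighbour BIRC2 overlapped, at 0.205, 0.182 and 0.188 with control siRNA and 0.186, 0.186 and 0.192 with LY96 siRNA.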
